A study of Homo sapiens with 4 samples.

Results

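The 7 genes described here encode receptors for cytokines, chemokines and ligands of the tumour necrosis factor (TNF) family: IFNAR1, IL20RB, IL17RC, TNFRSF1A, TNFRSF10B, TNFRSF12A and CXCR5. They were chosen by symbol from the authors' table of differential peaks of N4-acetylcytidine (ac4C), and were 7 of its 2483 genes and of the 6723 gene identifiers with a peak in either condition. ac4C was mapped by acRIP-seq, in which fragmented RNA is pulled down with an antibody against ac4C (IP) and compared with the RNA before the pull-down (input). The cells were FaDu, a human line established from a squamous carcinoma of the hypopharynx, carrying either a control shRNA (shNC) or an shRNA against NAT10 (shNAT10), the enzyme that writes ac4C. By the study's methods the shRNAs were delivered stably by a lentiviral vector with puromycin resistance, so the controls also carried a vector. The 4 libraries were an IP and an input for each of the 2 conditions, without replicates, and no difference between the conditions was tested. Read depth is unknown, since the tables give peaks only.

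These receptors span the membrane and turn a secreted or cell-bound ligand into a signal inside the cell. Interferon and interleukin receptors of the class II family work as pairs of chains that carry JAK kinases and activate STAT factors, whereas the IL-17 and TNF receptors recruit adaptors and TRAF proteins and lead to NF-kB and, for receptors with a death domain, to caspases. Chemokine receptors such as CXCR5 couple to G proteins and steer cell movement.

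The shNC list held 6403 peaks and the shNAT10 list 6417, with a median fold enrichment of IP over input of 12.4 in both. NAT10 itself had a peak in each list, with a fold enrichment of 6.91 in shNC and 12 in shNAT10. Fold enrichment is a ratio to the input of the same gene, so neither value gives the amount of NAT10 RNA, and the depth of the knockdown could not be read from these tables. Of 10 markers of squamous epithelium, 4 had a peak in shNC (CDH1, DSP, SFN and TP63) and 3 of these had a peak in shNAT10. The 5 B-cell, 4 T-cell and 4 myeloid markers had no peak in either list, and of 3 fibroblast markers only COL1A1 had one, in shNC.

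Across both lists the 7 receptors had 9 peaks. IFNAR1, IL20RB, IL17RC and TNFRSF10B had a peak in shNC only, TNFRSF12A and CXCR5 had a peak in shNAT10 only, and TNFRSF1A had peaks in both. Of their 6 shNC peaks, 5 had no overlapping shNAT10 peak, where 48.3% of all shNC peaks had none. Of their 3 shNAT10 peaks, 2 had no overlapping shNC peak, where 48.5% of all shNAT10 peaks had none. All 5 unmatched shNC peaks were in the third quartile of the peak p-value, counted from the smallest, where 64.6% of shNC peaks were unmatched, and both unmatched shNAT10 peaks were in the second, where 41.1% were. The matched TNFRSF1A peaks were in the first quartile in shNC (8.62% unmatched) and the last in shNAT10 (80.6%). A differential peak was the condition for choosing these genes, so these counts describe the choice and are not a result. A gene missing from a list had no peak called there, and the tables do not give the level of its RNA, so less ac4C on the RNA and less RNA cannot be told apart. In order of fold enrichment, the values were 71.1 (TNFRSF1A, shNC), 32.5 (CXCR5, shNAT10), 29.7 (IL20RB, shNC), 15.9 (IFNAR1, shNC), 13.8 (IL17RC, shNC), 8.9 (TNFRSF12A, shNAT10), 6.48 (TNFRSF1A, shNAT10), 5.3 (TNFRSF10B, shNC) and 2.84 (TNFRSF1A, shNC). Without replicates it is not known which neighbours in this order differ beyond their error.

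Of the class II receptors, IFNAR1 (ENSG00000142166) encodes a chain of the receptor for type I interferons, which it forms with IFNAR2. Its peak lay on chromosome 21 from 33355682 to 33355921 (GRCh38, plus strand), in the 3′-UTR by the authors' annotation and 3943 nt before the 3′ end of the RefSeq gene. The fold enrichment in shNC was 15.9, higher than 62.2% of shNC peaks, with a peak p-value of 6e-09 from the authors' caller, and no IFNAR1 peak was listed in shNAT10. It was the farthest from the gene's 3′ end of all peaks of these receptors, and it held no C-rich motif site. IL20RB (ENSG00000174564) encodes the chain shared by the receptors for IL-19, IL-20 and IL-24. Its shNC peak, on chromosome 3 from 137010757 to 137010936 (plus strand, 3′-UTR), ended 149 nt before the 3′ end of the gene. Its fold enrichment of 29.7 exceeded 81.8% of shNC peaks, while its peak p-value of 2.7e-09 was smaller than the p-values of only 45.5% of them, so it ranked higher by enrichment than by p-value. IL20RB had no peak in shNAT10.

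IL17RC (ENSG00000163702) encodes the chain that joins IL17RA in the receptor for IL-17A and IL-17F. Its peak was the 419 nt from 9933003 to 9933421 on chromosome 3 (plus strand), with a fold enrichment of 13.8 in shNC and no peak in shNAT10. It was the only gene of the 7 whose differential peaks lay in coding sequence, and the authors' table split it into pieces of 180 and 150 nt. The pieces held 2 and 4 motif sites. The 150-nt piece had 2.67 sites per 100 nt, the highest density among the 8 differential peaks.

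TNFRSF1A (ENSG00000067182) encodes TNF receptor 1, the main death-domain receptor for TNF, and was the only one of the 7 genes with a peak in both conditions. In shNC its last peak ran from 6328817 to 6329205 on chromosome 12 (minus strand, 3′-UTR), with a fold enrichment of 71.1 that exceeded 95.6% of shNC peaks. In shNAT10 the peak at this place ran from 6328996 to 6329175, with a fold enrichment of 6.48 that exceeded 20.2% of shNAT10 peaks. The shNAT10 value was thus 11-fold lower than the shNC value, a log2 ratio of -3.46. The shNAT10 peak lay wholly inside the shNC peak and covered 180 of its 389 nt (46.3%). The match was lost where an overlap of 50% of both peaks or an FDR of at most 0.001 was required (the FDR of the shNAT10 peak was 0.00182). For comparison, 24.1% of the 3308 overlapping peak pairs of all genes were at least 2-fold lower in shNAT10, 22.8% were at least 2-fold higher, and 1.27% were as low as TNFRSF1A or lower. TNFRSF1A entered the set because of this contrast, so its place among the pairs is a description. The peak p-value from the authors' caller was 2.5e-44 in shNC and 0.00018 in shNAT10. A further shNC peak from 6329355 to 6329504, upstream in the transcript, had a fold enrichment of 2.84, in the lowest 2.95% of the list. It had no shNAT10 peak over it and was not in the table of differential peaks. Both motif sites of the TNFRSF1A differential peak lay in the stretch covered in both conditions.

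**Figure D1:**
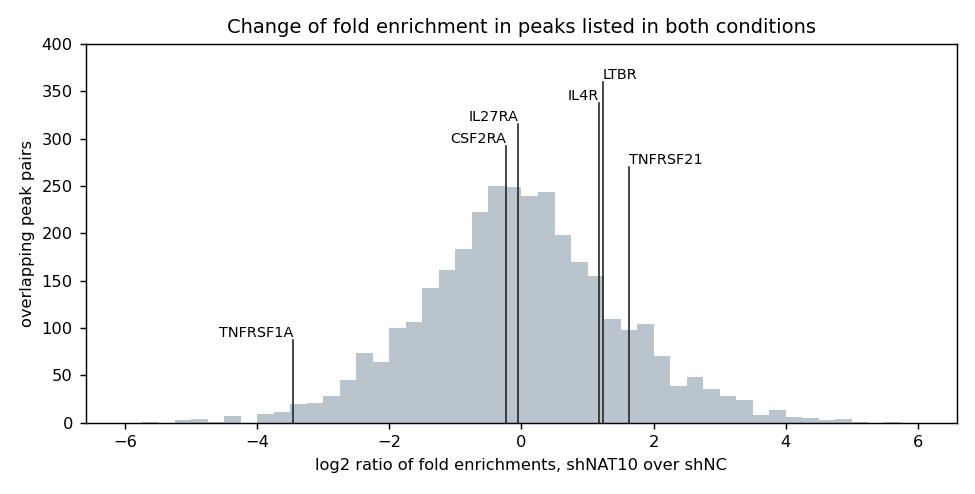
Histogram of the log2 ratio of fold enrichments, shNAT10 over shNC, for the 3308 overlapping peak pairs of all genes, with the 6 receptor genes that had such a pair marked by vertical lines (bin width 0.25). TNFRSF1A lies at -3.46, far left of IL27RA, CSF2RA, IL4R, LTBR and TNFRSF21, which run from -0.23 to 1.63.

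TNFRSF10B (ENSG00000120889) encodes TRAIL receptor 2, which starts apoptosis through its death domain. Its shNC peak on chromosome 8 from 23020523 to 23020703 (minus strand, 3′-UTR) had a fold enrichment of 5.3, above only 14.7% of shNC peaks, and a peak p-value of 1.2e-08. It held 3 motif sites in 181 nt, and no TNFRSF10B peak was listed in shNAT10. TNFRSF12A (ENSG00000006327) encodes Fn14, the receptor for TWEAK, which has no death domain. Its peak was listed in shNAT10 only, on chromosome 16 from 3022174 to 3022353 (plus strand), ending 30 nt before the 3′ end of the gene. The fold enrichment was 8.9, below the median of the list, but the peak p-value of 5e-32 was smaller than those of 74.5% of shNAT10 peaks. This was the reverse of IL20RB, whose enrichment ranked higher than its p-value. The authors' table gave this peak as exon without naming a UTR or coding sequence, and it held 1 motif site.

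CXCR5 (ENSG00000160683) encodes the receptor for the chemokine CXCL13 and is known from B cells and follicular helper T cells. In shNAT10 its peak ran from 118896213 to 118896632 on chromosome 11 (plus strand, 3′-UTR), with a fold enrichment of 32.5, above 84.0% of the list. No CXCR5 peak was listed in shNC. BCL9L, a coactivator of Wnt and beta-catenin signalling, is encoded at the same place on the minus strand. A BCL9L peak in shNAT10 ran from 118896215 to 118896635, shared 418 nt with the 420-nt CXCR5 peak, and had a fold enrichment of 30.4. The table of differential peaks held the same pair, with 238 nt in common. It listed 3 motif sites for BCL9L and 0 for CXCR5, which is read on the other strand. Whether the counting used the strand of the reads is not given in the sources used here, so the reads of CXCR5 and BCL9L cannot be told apart. Such pairs were not rare: 597 shNAT10 peaks (9.3%) overlapped a peak on the opposite strand, and in 58.0% of the 317 pairs the fold enrichments were within 1.2-fold of each other. No other peak counted for a receptor overlapped a peak listed under a different gene identifier. None of the 5 B-cell markers, MS4A1 and CD79A among them, had a peak in either list.

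**Figure D2:**
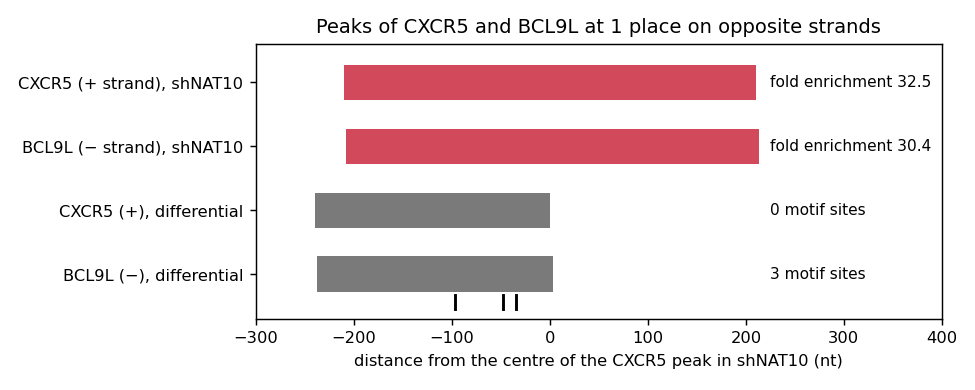
Extent of the CXCR5 and BCL9L peaks in shNAT10 and in the authors' table of differential peaks, as distance in nt from the centre of the CXCR5 peak, with short black ticks for motif sites. The 2 genes' peaks cover nearly the same bases on opposite strands, and the 3 motif sites are read on the BCL9L strand.

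Features that did not enter the choice of genes were compared with those of all 2807 differential peaks. Of the 8 differential peaks of the 7 receptors, 5 lay in a 3′-UTR, 2 in coding sequence and 1 in an exon of no further class. Over all differential peaks the shares were 56.1% in 3′-UTRs, 19.4% in coding sequence and 23.7% in exons of no further class. The receptor peaks were shorter, with a median of 180.5 nt against 241 nt. They lay a median of 310 nt before the 3′ end of their gene, against 443 nt over the 2477 peaks that could be placed on a RefSeq gene. The C-rich motif CXXCXXCXXCXX, where X is any base, is the pattern reported for sites acetylated by NAT10, and the authors listed its sites on the strand of the gene. It was present in 5 of the 8 receptor peaks (62.5%) and in 57.8% of all differential peaks. Per 100 nt there were 0.702 sites in the receptor peaks and 0.487 in all, but without IL17RC the receptor value was 0.435, below that of all peaks. The receptors were split by it: the IL17RC, TNFRSF10B, TNFRSF1A and TNFRSF12A peaks had sites, and the IFNAR1, IL20RB and CXCR5 peaks had none. IL17RC alone held 6 of the 12 sites, and none of these features was tested as particular to the receptors.

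**Figure D3:**
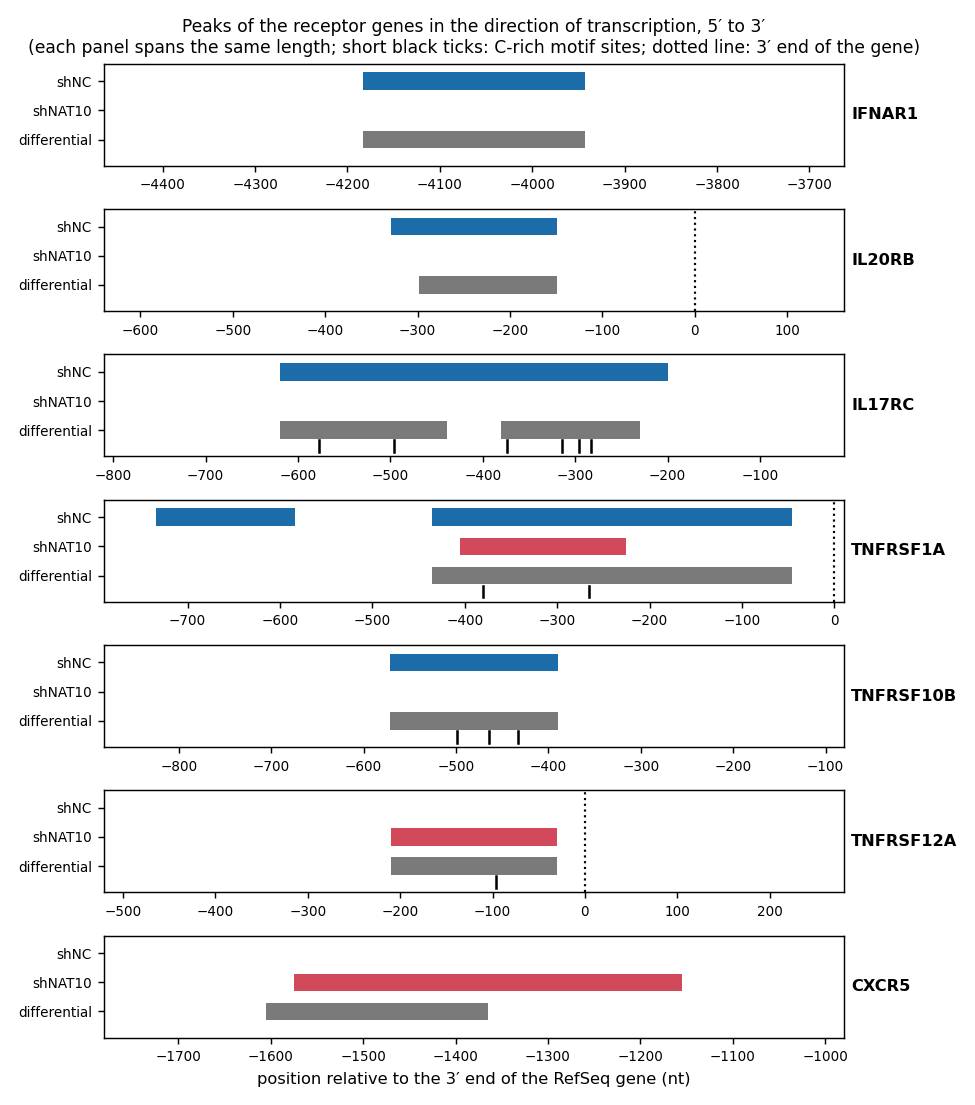
Peaks of each receptor gene in shNC (blue), shNAT10 (red) and the authors' table of differential peaks (grey), drawn 5′ to 3′ as distance in nt from the 3′ end of the RefSeq gene, with short black ticks for motif sites. All panels span 800 nt, and every gene but IFNAR1 and CXCR5 has its peaks within the last 800 nt of the gene.

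To place the 7 genes in their families, 111 receptor genes in 6 lists were looked up in both peak lists. Of these, 9 of the 19 with a peak in either list were in the table of differential peaks, where 36.5% of protein-coding genes with a peak were. But 7 of the 9 are the genes chosen from that table, and of the other 12 receptors with a peak 2 were in it. The choice thus sets both shares, and neither is a result. Of all 111, 15 (13.5%) had a shNC peak and 11 (9.91%) a shNAT10 peak, where 22.1% and 22.0% of all protein-coding genes did. With peaks of an FDR of at most 0.001 only, 14 had a shNC peak and 7 a shNAT10 peak. No shNAT10 peak was listed for 8 of the 15 with a shNC peak, where 35.3% of such protein-coding genes had none. Of these 8 genes, 4 are among the 7 chosen on this contrast. The other 92 receptor genes had no peak in either list, and their expression is not in the tables. LEPR was counted by position among the receptors with a shNC peak and none in shNAT10. Its only peak carried the identifier of the overlapping gene LEPROT. Without it, the counts of receptors with a peak in either list and with a shNC peak would each be lower. Besides the 7 genes, LTBR and SIGIRR were in the table of differential peaks, so the 7 are not all of the receptors there. LTBR, the lymphotoxin beta receptor, had overlapping peaks at 31.4 in shNC and 73.5 in shNAT10, the opposite order to TNFRSF1A, which lies nearby on chromosome 12. LTBR also had peaks that overlapped none of the other list, at 7.6 in shNC and 15.2 in shNAT10. The LTBR peak at 7.6 had an FDR of 0.126 from the authors' caller. SIGIRR, a negative regulator of IL-1 receptor signalling, had a peak of 5.39 in shNC and of 9.3 in shNAT10 at a different place in the gene. The shNAT10 peak of SIGIRR had an FDR of 0.0513 from the authors' caller.

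The TNF receptor family had the same number of genes with a peak in each list, 5 of 29. TNFRSF1A, LTBR and TNFRSF21 (death receptor 6) were in both, TNFRSF10B and TNFRSF13C, the BAFF receptor of B cells (fold enrichment 35.2), were in shNC only, and TNFRSF12A and the nerve growth factor receptor NGFR (4.44) were in shNAT10 only. The overlapping TNFRSF21 peaks were at 11.7 in shNC and 36.3 in shNAT10, and a further shNC peak at 16.6 overlapped no shNAT10 peak. Of 5 IL-17 receptors, IL17RC and its neighbour on chromosome 3, IL17RE (19.3 and 8.29), had peaks, all in shNC. The IL17RE peak at 8.29 had an FDR of 0.0832 from the authors' caller. Of 11 class II receptors, IFNAR1 and IL20RB had peaks, both in shNC. Of 34 class I receptors, 5 had a shNC peak and 3 a shNAT10 peak. In overlapping peaks, IL4R was at 9.67 in shNC and 21.7 in shNAT10, IL27RA at 39.4 and 38.0, and CSF2RA at 69.4 and 59.2, and none of them was in the table of differential peaks. CSF2RA also had peaks that overlapped none of the other list, at 72.7 in shNAT10 and at 26.9 and 6.22 in shNC. The CSF2RA peak at 6.22 was weak, with a peak p-value of 0.041 from the authors' caller, and did not reach an FDR of 0.001. IL6ST (21.4) was listed in shNC only. A shNC peak at 11.1 lay within the LEPR gene but carried the identifier of an overlapping gene, LEPROT (ENSG00000213625). It was counted for LEPR by position, so the 5 class I receptors with a shNC peak include it. Of 23 chemokine receptors, CXCR5 and the decoy receptor ACKR2 (9.3) had peaks, both in shNAT10. The ACKR2 peak had an FDR of 0.0513 from the authors' caller, and the reads of CXCR5 cannot be told apart from those of BCL9L. None of these counts was tested.

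**Figure D4:**
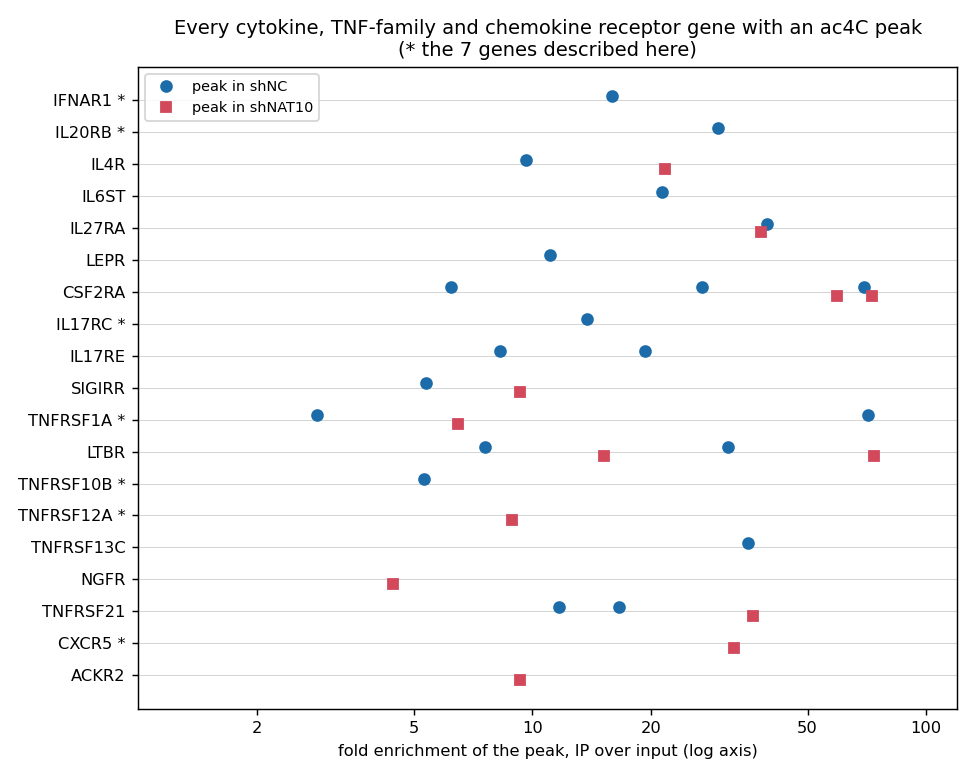
Fold enrichment (IP over input, log axis) of every peak of the 19 cytokine, TNF-family and chemokine receptor genes with a peak in either list, with circles for shNC and squares for shNAT10 and an asterisk on the 7 genes described here. The highest TNFRSF1A point is a shNC peak (71.1) and the highest LTBR point a shNAT10 peak (73.5). The LEPR point is a peak that carried the identifier of the overlapping gene LEPROT.

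The partner chains IFNAR2, IL17RA, IL20RA and IL22RA1 had no peak in either list, and neither did any of the 15 genes listed as ligands, among them TNF, TNFSF10 (TRAIL), TNFSF12 (TWEAK), IL17A and CXCL13. Of 62 signalling genes in 3 lists, 20 had a shNC peak (32.3%) and 22 a shNAT10 peak (35.5%), with 15 in both, against 22.1% and 22.0% of all protein-coding genes. With peaks of an FDR of at most 0.001 only, 14 had a shNC peak and 18 a shNAT10 peak. The share of all genes at this limit was not computed, and the signalling counts were not tested. Of 16 JAK-STAT genes, 5 had a shNC peak and 6 a shNAT10 peak. PTPN6, RACK1, STAT3 and TYK2 had peaks in both lists, PIAS1 in shNC only, and PTPN11 and STAT2 in shNAT10 only. The PIAS1 peak had an FDR of 0.242 from the authors' caller. TYK2, the JAK kinase that binds IFNAR1, was singled out after its values were seen, with overlapping peaks at 3.53 in shNC and 22.5 in shNAT10. Of 22 genes for adaptors and death signalling of the TNF and IL-17 receptors, 5 had a peak in each list. DIABLO, TRAF2 and TRAF4 had peaks in both lists, CASP8 and TRAF3 in shNC only, and MADD and XIAP in shNAT10 only. Of 24 NF-kB genes, 10 had a shNC peak and 11 a shNAT10 peak. The highest signalling gene peaks were those of TAB1 (40.1), RACK1 (32.1) and RBCK1 (26.1) in shNC, and of NFKBIB (53.0), IKBKB (47.3) and RBCK1 (43.2) in shNAT10.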

How the data were processed

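acRIP-seq libraries of FaDu cells, 1 IP and 1 input in each of shNC and shNAT10, were sequenced as paired ends. The submitters' processing notes name cutadapt 2.5, HISAT2 2.1.0, featureCounts 1.6.3 and HOMER 4.10.4 with GRCh38. The peak caller and the use of strand are not given in the sources used here. The deposited peak lists give each peak's fold enrichment, a linear ratio of IP over input, as the authors computed it in each condition. The authors' deposited p-value of each peak was used to rank peaks, and the deposited log10 FDR of each peak, read as a score since it has no lower bound, was used in stricter settings. The deposited table of differential peaks gives symbol, region, motif sites and a fold enrichment over both conditions, and its columns of the authors' own comparison (log2 fold change, p-value and FDR of the difference) were not used. Lists were assigned to conditions by the prefix they share with the library titles.

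Peaks overlapped where exonic blocks shared at least 1 base on the same strand. Pairs were called at a 2-fold ratio. A percentile is the share of peaks of the list with a fold enrichment no higher, or a p-value no smaller, than its own. Genes outside the authors' table were named by their position in RefSeq genes of GRCh38.p14, on the strand of the gene where known. The strand was unknown for 30 of the 111 receptors and 4213 of the 20056 protein-coding genes. For these a peak on either strand was counted. A peak of an overlapping gene could also be counted, as with LEPROT and LEPR. The listed motif positions were counted as offset by strand, a reading under which 37 of 40 sites inside RefSeq promoter sequences matched the motif. Simulated peaks were used to check the overlap count. With 1 library pair per condition no test between conditions was made, and scaling between libraries is not stated. The genes and lists were chosen with earlier results of these data known. The result for 1 marker gene is not reported here. Named genes were the 7 receptors, their partner chains and ligands, every listed receptor with a peak, the 3 signalling genes highest in each list, and any gene whose peak overlapped theirs. The other signalling genes and the markers with a peak were named after their values were seen. Alternatives were an overlap of 50% of both peaks, matching by gene, an FDR of at most 0.001, a fold enrichment of at least 4, ranking by p-value, a 1.5-fold call and, added after seeing the data, leaving out CXCR5 or, for motif density, IL17RC. Python 3.11.15 with numpy 2.4.6, pandas 2.3.3 and matplotlib 3.10.9 was used.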

Additional observations from a re-analysis of the deposited data

How the results depend on the processing

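Of 41 values recomputed under the alternatives, 21 were classed as the same and 20 as moved. They are counts, shares, percentiles and a density, so none has a sign that could reverse. The class of the same did not mean unchanged. Signalling genes with a shNC peak went from 20 to 14 with an FDR of at most 0.001. By peak p-value, the percentile went from 62.2 to 44.6 for IFNAR1, 55.6 to 34.7 for IL17RC and 84.0 to 64.8 for CXCR5. The match of TNFRSF1A between the conditions depended on the rule: with an overlap of 50% of both peaks, 0 shNC and 0 shNAT10 peaks of the 7 receptors were matched, and likewise 0 and 0 with an FDR of at most 0.001, against 1 and 1. Matching by gene gave 2 matched shNC peaks, both of TNFRSF1A. Ranked by peak p-value in place of fold enrichment, the percentile was 45.5 for IL20RB, 44.0 for TNFRSF10B, 74.5 for TNFRSF12A and 29.9 for the weaker TNFRSF1A peak in shNC, against 81.8, 14.7, 34.5 and 2.95. IL20RB thus went from above to below the middle of its list, and TNFRSF12A the other way. Over all genes, the share of shNC peaks without a shNAT10 peak was 59.0% with an overlap of 50% of both peaks, 42.4% with an FDR of at most 0.001 and 50.4% with a fold enrichment of at least 4, and the share of shNAT10 peaks without a shNC peak was 59.1%, 41.5% and 50.4%. With a 1.5-fold call, 34.0% of pairs were lower and 31.8% higher in shNAT10, and with an overlap of 50% of both peaks 20.5% were at least 2-fold higher. With an FDR of at most 0.001, 7 receptor genes had a shNAT10 peak, against 11. Leaving out IL17RC, a setting chosen after seeing the data, lowered the motif density of the receptor peaks from 0.702 to 0.435 sites per 100 nt. The density thus went from above to below the 0.487 of all differential peaks. Leaving out CXCR5 changed no count of matched peaks or motif sites. The cause of these shifts was not tested beyond the construction of each setting. No paired analysis was possible because the conditions have no replicates. The region class by an independent annotation was not run, since no transcript annotation was used here. Depth is unknown, so peaks near the caller's limit may be listed in only 1 condition, and no value has an error.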
